A study of Mus musculus with 3 samples.

Results

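The genes described here encode receptors that steer where lymphocytes go: the chemokine receptors Ccr2, Ccr7, Cxcr4, Cxcr6 and Cx3cr1, the sphingosine 1-phosphate (S1P) receptors S1pr1 and S1pr5, and Cd69, a membrane lectin. These 8 of the 22367 protein-coding genes in the annotation were chosen by symbol, and each was examined over its gene body with 20 kb on either side (its window). The windows held 25 of the 15524 Runx3-bound regions and 51 of the 49902 H3K4me1-marked regions mapped in resting natural killer cells (NKC). ChIP-seq, which sequences the DNA that an antibody pulls down with chromatin, was performed on splenic NKC of wild-type ICR mice, freshly isolated by negative selection and sorting. The 3 samples were a Runx3 immunoprecipitate (in-house polyclonal antibody, 1 sample), an H3K4me1 immunoprecipitate (monoclonal antibody, 1 sample) and a non-immune rabbit serum (NIS) control (1 sample), all from cells fixed in 1% formaldehyde and sheared to about 300 bp. All of them came from the same cell type, strain and state, and no age was given. NIS entered only through the authors' peak calling. The labels name NKp46 as the sorting marker and the methods of the study name DX5. Each antibody gave a single list of positions without heights, so no value below has a spread between replicates, no test was possible, and neither list tells in what share of the cells a region was bound or marked.

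Chemokine receptors are seven-transmembrane receptors that couple to Gi proteins and pull cells up gradients of their ligands. S1P receptors of the same superfamily sense S1P, which is plentiful in blood and lymph and scarce inside tissues, and thereby draw lymphocytes out of lymphoid organs, while CD69 binds S1PR1 and removes it from the surface. Runx3 is a transcription factor of cytotoxic lymphocytes, and H3K4me1 is a histone mark of enhancers and of the flanks of active promoters. A region on a list marks a place where signal was called, not the level of a transcript.

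The cell type label was compared with region lists at marker genes. The gene lists were chosen with earlier results of these data known, so the comparison is not an independent check of the label. All 8 NKC markers had a Runx3 peak and an H3K4me1 region in the same kind of window (median H3K4me1 coverage 66.0%). A Runx3 peak was present at 4 of 6 T cell markers (median coverage 24.4%) and 3 of 5 B cell markers (7.24%). It was present at 3 of 5 myeloid markers (4.96%) and 0 of 3 erythroid markers (3.40%), beside 51.0% of all protein-coding genes. An H3K4me1 region was present at 5 of 6 T cell, 4 of 5 B cell, 3 of 5 myeloid and 3 of 3 erythroid markers, beside 74.0% of all genes. Its presence alone therefore did not set the NKC markers apart. A Runx3 midpoint lay under 1 kb from a start site at 6 of 8 NKC markers and at 0 of the 19 other markers, beside 27.2% of all genes. The T cell marker Cd8a, the B cell marker Ms4a1 and the myeloid markers Lyz2 and Emr1 had no region of either kind in their windows. Others of these markers did: the T cell markers Cd3d, Cd3e and Cd3g had 2 Runx3 peaks each and 44.7, 27.3 and 43.4% H3K4me1 coverage in windows that overlap each other, the B cell marker Cd79a had 3 peaks and 28.2% coverage, and the myeloid marker Cd14 had 2 peaks and 20.5% coverage. The part of other cell types in the regions below was not tested.

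Every one of the 8 receptor genes had both Runx3 and H3K4me1. At least 1 Runx3 peak was found in 8 of 8 windows, where 51.0% of all protein-coding genes had one, and at least 1 H3K4me1 region in 8 of 8, against 74.0% of all genes. Ccr7 and S1pr5 held 5 Runx3 peaks each, Ccr2 and Cxcr4 held 4 each, Cx3cr1, S1pr1 and Cd69 held 2 each, and Cxcr6 held 1. Thus 7 of 8 had at least 2 peaks (27.5% of all genes), 4 of 8 at least 4 (7.31% of all genes) and 2 of 8 at least 5 (4.08% of all genes). These counts include peaks nearest to the start of another gene. By peaks nearest to their own start, only Ccr7 (5) and Cxcr4 (4) had at least 4, and Cx3cr1 had 1. This own-start count was not made for all genes, so the shares above are no background for it. The windows of the 8 genes were 44.1 to 59.6 kb wide, and the median over all genes was 55.4 kb, so that the receptor windows were mostly the shorter ones. Per 100 kb of window the 8 genes held a median of 6.12 peaks (range 2.21 at Cxcr6 to 11.0 at S1pr5), beside a median of 0.451 over all genes.

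H3K4me1 regions covered 23.1% of the window at Cd69, 31.9% at Cxcr6, 37.3% at Cxcr4, 41.6% at S1pr1, 52.1% at Cx3cr1, 60.9% at Ccr2, 64.4% at Ccr7 and 67.5% at S1pr5. Their median was 46.9%, and that of all protein-coding genes was 7.37%, with an upper quartile of 17.3%. Coverage as high as that of S1pr5 was reached by 0.340% of all genes, and coverage as high as that of Cd69 by 16.3%. For the receptors and for all genes alike, coverage includes regions at neighbouring genes inside the window. The plot of the 8 genes beside all genes shows that the order by Runx3 peaks differed from the order by H3K4me1 coverage. Cx3cr1, with only 2 peaks, had 52.1% coverage, above Cxcr4 with 4 peaks (37.3%). Cx3cr1 also had 11 separate H3K4me1 regions, the most of the 8, in the widest of the windows (59.6 kb).

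**Figure D1:**
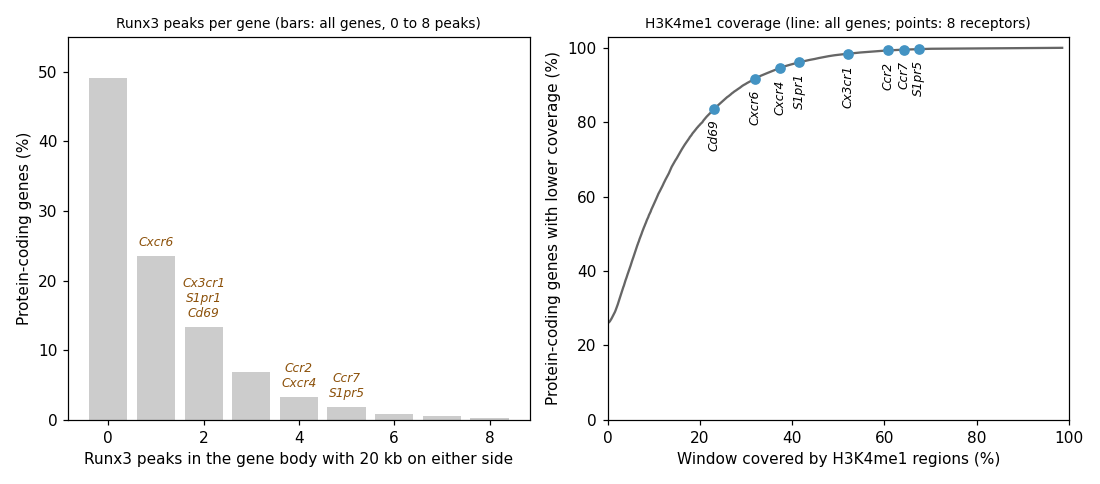
Left, share of all protein-coding genes (bars, %) by the number of Runx3 peaks in the gene body with 20 kb on either side, drawn up to 8 peaks, with the 8 receptor genes written above the bar of their own count. Right, share of protein-coding genes with lower H3K4me1 coverage (y axis, %) against the coverage of the window (x axis, %), with the line for all genes and points for the 8 receptors, which run from 23.1% at Cd69 to 67.5% at S1pr5.

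The peaks were then placed relative to the genes. By midpoint, 7 of the 25 Runx3 peaks lay upstream of the gene, 7 inside it and 11 beyond its end. Of these peaks 8 lay within 5 kb of a start site of the receptor gene, and 13 lay over 10 kb away (range 40 bp to 29.8 kb). These distances depend on the 20 kb taken on either side, and the same counts were not made for all genes. The nearest annotated start of any gene was that of the receptor itself for 19 peaks and of another gene for 6, Keap1, Atg4d and Xirp1 among them. A Runx3 midpoint under 1 kb from an own start site was found at 3 of 8 genes (Ccr7, Cxcr4 and S1pr1), beside 27.2% of all genes. H3K4me1 covered a start site at 7 of 8, beside 43.5% of all genes, the exception being Cxcr4.

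**Figure D2:**
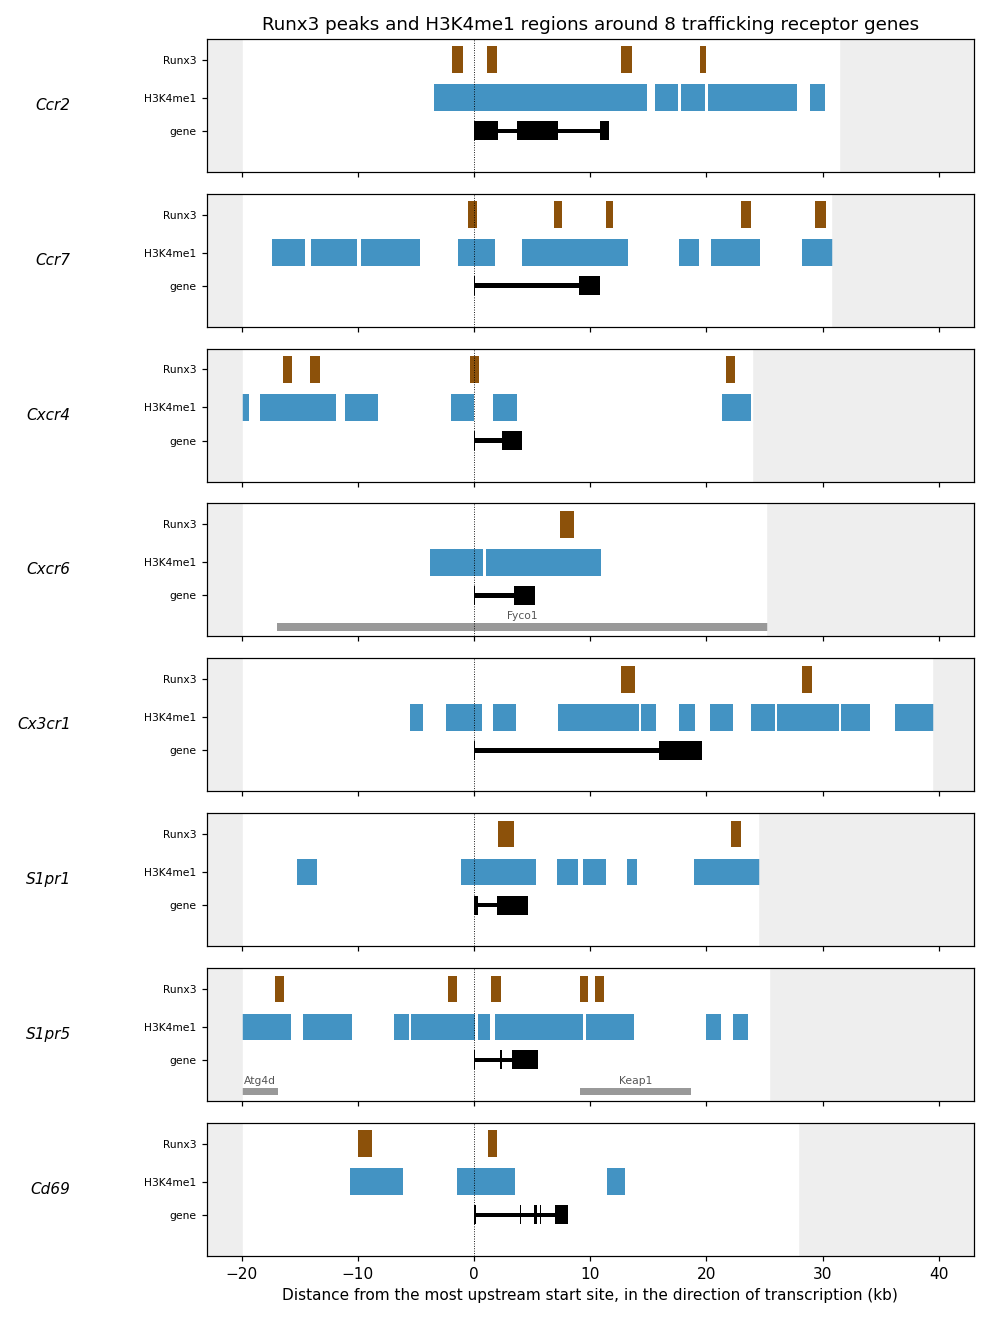
Runx3 peaks (brown), H3K4me1 regions (blue) and exons (black boxes) of the 8 receptor genes, with Fyco1, Atg4d and Keap1 in grey, against the distance from the most upstream start site in the direction of transcription (kb). White background marks the window of each gene, and each window holds both kinds of region, with 5 Runx3 peaks at Ccr7 and S1pr5 and 1 at Cxcr6.

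S1pr5, the S1P receptor by which mature NKC leave bone marrow and lymph nodes, had the highest H3K4me1 coverage of the 8 genes. Its window also held the most Runx3 peaks per 100 kb, a rank that rests on peaks at neighbouring genes. The coverage took in regions at neighbours too, among them 4114 bp with the midpoint in Keap1 and 3799 bp with the midpoint in Atg4d. It was not recomputed without them. S1pr5 lies on the minus strand of chromosome 9 from 21047356 to 21052887 (all positions are on mm9, 1-based). A pair of Runx3 peaks flanked its start site at nearly equal distances, with midpoints 1841 bp upstream (21054346 to 21055110) and 1881 bp downstream in an intron (21050595 to 21051417). The start itself was covered by an H3K4me1 region of 5544 bp and by no Runx3 peak. The intronic peak reached 298 bp into a gap of 370 bp between H3K4me1 regions. The remaining 3 peaks of the window lay at neighbours. The first (21069226 to 21070057) had its midpoint 101 bp from a start of Atg4d, an autophagy protease gene. The others lay in a coding exon of Keap1 (21041689 to 21042447), which encodes the inhibitor of Nrf2, and 369 bp from a Keap1 start (21043068 to 21043746), the latter across a gap of 315 bp between H3K4me1 regions. Without these neighbours' peaks S1pr5 had 2, or 4.39 per 100 kb, below Ccr7 (9.83), Cxcr4 (9.07) and S1pr1 (4.48), whose peaks all had their own start as the nearest.

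S1pr1, the receptor that carries lymphocytes from tissue into blood and lymph, lies on the minus strand of chromosome 3 from 115413351 to 115417973 and had 2 Runx3 peaks. The first was the widest of all 25 (1378 bp, 115414567 to 115415944). Its midpoint lay 2.72 kb inside the gene in the coding exon, 311 bp past the start of a shorter annotated transcript, within an H3K4me1 region of 6516 bp that also covered the upstream start. The second (115395027 to 115395838) was intergenic, 22.5 kb downstream of the upstream start in an H3K4me1 region of 9392 bp. The central 300 bp of the exonic peak are shown because they hold a RUNX match inside coding sequence, chr3:115415106-115415405, on the strand of the gene, with the match to the RUNX consensus in capitals (ACCACA is TGTGGT read on the other strand).
S1pr1: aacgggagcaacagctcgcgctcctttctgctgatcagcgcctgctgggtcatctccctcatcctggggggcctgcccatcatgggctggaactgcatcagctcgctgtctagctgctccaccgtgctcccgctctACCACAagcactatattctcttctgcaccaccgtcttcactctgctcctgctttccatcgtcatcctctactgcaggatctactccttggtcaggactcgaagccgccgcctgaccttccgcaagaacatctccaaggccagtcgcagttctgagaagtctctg

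Cd69, which is induced within hours of activation and keeps cells in tissue by holding S1PR1 inside, lies on the minus strand of chromosome 6 from 129217342 to 129225387. Its window was the least covered by H3K4me1 and held 3 regions. A Runx3 peak in an intron (129223412 to 129224185, midpoint 1.59 kb past the start) lay in the H3K4me1 region of 5001 bp that covered the start. The other peak (129234201 to 129235414, 1214 bp) lay 9421 bp upstream in an intergenic H3K4me1 region of 4574 bp, and the third H3K4me1 region, downstream of the gene, held no Runx3 peak. The upstream peak had the start of Cd69 as its nearest annotated start. The central 300 bp of the intronic peak (chr6:129223649-129223948, strand of the gene) carried 1 RUNX match.
Cd69: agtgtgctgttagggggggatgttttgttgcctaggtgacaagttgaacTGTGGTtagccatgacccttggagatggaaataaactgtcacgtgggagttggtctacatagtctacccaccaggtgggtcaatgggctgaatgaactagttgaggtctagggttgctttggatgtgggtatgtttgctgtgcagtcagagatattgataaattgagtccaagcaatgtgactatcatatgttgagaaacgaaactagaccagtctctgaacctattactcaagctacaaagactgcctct

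Ccr7, which takes lymphocytes into lymph nodes along CCL19 and CCL21, lies on the minus strand of chromosome 11 from 99005510 to 99016391 and shared the highest count of Runx3 peaks with S1pr5. At Ccr7 all 5 peaks had the start of Ccr7 as the nearest start. The first covered the start site (99016175 to 99016877, midpoint 135 bp upstream), and another lay in an intron 7.24 kb past the start (99008794 to 99009508). A further 3 lay beyond the end of the gene, 11.7, 23.4 and 29.8 kb past the start (99004410 to 99005025, 98992534 to 98993381 and 98986127 to 98986995). Each of the 5 lay wholly inside an H3K4me1 region. The upstream side differed from the downstream side: it held 3 H3K4me1 regions of 5091, 4025 and 2786 bp between 4.62 and 17.4 kb before the start, and none of them held a Runx3 peak. The peak at the start is shown because its 2 RUNX matches, a TGTGGT followed by a TGTGGC, lay close together on the strand of transcription (chr11:99016376-99016675, strand of the gene).
Ccr7: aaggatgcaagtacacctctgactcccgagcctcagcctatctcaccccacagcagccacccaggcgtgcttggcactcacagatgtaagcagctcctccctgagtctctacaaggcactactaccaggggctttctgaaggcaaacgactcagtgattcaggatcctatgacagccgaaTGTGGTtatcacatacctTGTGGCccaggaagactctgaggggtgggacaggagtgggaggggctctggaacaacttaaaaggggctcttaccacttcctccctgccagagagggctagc

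Cxcr4, the receptor for CXCL12 that retains cells in bone marrow, lies on the minus strand of chromosome 1 from 130484776 to 130488870 and was the exception among the 8 at its start. Its start site lay in a gap of 1677 bp between H3K4me1 regions, 40 bp from the upstream one. A Runx3 peak (130488424 to 130489230) covered the start, with its midpoint 40 bp from it over a UTR exon, and had 39.8% of its bases in H3K4me1, the lowest share of the 25. This peak held no RUNX match over its whole length, and its central 300 bp had 21 CpG dinucleotides. The other 3 peaks lay in H3K4me1 over their whole length, 13716 and 16067 bp upstream (130502164 to 130503008 and 130504561 to 130505312, both in a region of 6537 bp) and 22.1 kb downstream (130466441 to 130467176), and each had at least 1 RUNX match in its central 300 bp.

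Ccr2, the receptor for CCL2 that is best known for bringing monocytes to inflamed tissue, lies on the plus strand of chromosome 9 from 124016689 to 124028296. A single H3K4me1 region of 18343 bp (124013263 to 124031605) covered the whole gene and held 3 of its 4 Runx3 peaks. Only 0.451% of all H3K4me1 regions were as wide. As at S1pr5, a pair of Runx3 peaks flanked the start sites without covering them, with midpoints 1445 bp upstream (124014783 to 124015705) and 1325 bp past the nearest of the 3 start sites (124017794 to 124018700), over an annotated UTR. The third (124029369 to 124030261) lay past the end of the gene, 13.1 kb from the most upstream start, and the fourth lay 19.7 kb from it in a separate H3K4me1 region. Neither of these held a RUNX match over its whole length. The upstream peak is shown (chr9:124015094-124015393, plus strand) because the peak nearest the start lies mostly in a UTR.
Ccr2: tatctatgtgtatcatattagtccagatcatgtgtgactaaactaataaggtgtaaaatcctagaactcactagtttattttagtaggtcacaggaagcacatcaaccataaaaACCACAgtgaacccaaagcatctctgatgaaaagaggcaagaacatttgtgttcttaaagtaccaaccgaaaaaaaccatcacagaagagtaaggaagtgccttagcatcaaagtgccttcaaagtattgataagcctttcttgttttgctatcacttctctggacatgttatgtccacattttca

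Cxcr6, the CXCL16 receptor that marks liver-resident NKC and T cells, lies on the plus strand of chromosome 9 from 123715595 to 123720872, inside an intron of Fyco1 on the other strand. It had a single Runx3 peak (123722978 to 123724192, 1215 bp), 7.99 kb past the start and beyond the end of the gene, in an H3K4me1 region of 9941 bp. The midpoint of this peak lay in an intron of Fyco1, with the Cxcr6 start as its nearest annotated start. The Cxcr6 start site was covered by a separate H3K4me1 region of 4508 bp without a Runx3 peak. This single peak held 4 RUNX matches in its central 300 bp, the most of the 25, a number reached by 4.50% of all Runx3 peaks. All 4 were read on the strand opposite to the gene and appear in the sequence as ACCACA, or as GCCACA where the last base varies (chr9:123723435-123723734, plus strand).
Cxcr6: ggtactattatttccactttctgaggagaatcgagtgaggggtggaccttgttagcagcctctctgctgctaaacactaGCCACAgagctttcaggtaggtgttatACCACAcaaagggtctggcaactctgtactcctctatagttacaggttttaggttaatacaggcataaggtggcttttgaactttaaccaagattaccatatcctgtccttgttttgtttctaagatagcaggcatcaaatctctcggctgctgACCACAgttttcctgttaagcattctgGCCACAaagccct

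Cx3cr1, the fractalkine receptor that rises as NKC mature, lies on the minus strand of chromosome 9 from 119957811 to 119977400. Its start was covered by an H3K4me1 region of 3118 bp without Runx3, and no Runx3 peak lay within 5 kb of the start. The nearest was in an intron 13.3 kb past the start (119963553 to 119964740, 1188 bp), in an H3K4me1 region of 6957 bp. The second (119948301 to 119949147) lay 28.7 kb past the start, beyond the gene, and its nearest annotated start was that of Xirp1, 16.0 kb away. The other 9 of the 11 H3K4me1 regions held no Runx3 peak. The intronic peak carried a TGCGGT match and, further along, a TGTGGT match on the strand of the gene (chr9:119963997-119964296).
Cx3cr1: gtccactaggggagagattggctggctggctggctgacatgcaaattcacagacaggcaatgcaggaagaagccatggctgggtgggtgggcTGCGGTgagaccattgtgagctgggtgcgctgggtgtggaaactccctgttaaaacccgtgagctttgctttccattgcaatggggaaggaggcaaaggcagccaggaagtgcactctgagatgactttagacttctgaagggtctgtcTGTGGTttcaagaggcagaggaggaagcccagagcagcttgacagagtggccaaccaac

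Cxcr6 and Ccr2 belong to a cluster of chemokine receptor genes, and their starts were 301 kb apart. The Runx3 peaks between them were unevenly placed. A group of 5 lay between 232.7 and 243.3 kb from the Cxcr6 start, beyond the end of Ccr3, the eotaxin receptor of eosinophils. Ccr1, which encodes a receptor for CCL3 and CCL5, had 0 Runx3 peaks and 5.74% H3K4me1 coverage in its own window. Xcr1, the XCL1 receptor of dendritic cells, had 2 peaks and 24.8% coverage.

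The overlap of Runx3 with H3K4me1 was compared with that of the whole Runx3 list. All 25 peaks shared bases with H3K4me1 (100%, 95% Wilson interval 86.7 to 100%), as did 95.7% of all Runx3 peaks. Midpoints of 23 of 25 lay inside a region (92.0%, interval 75.03 to 97.8%), beside 83.6% of all peaks, the exceptions being the peak at the Cxcr4 start and the peak at a Keap1 start. Of the 25 peaks, 4 reached past the edge of H3K4me1, among them the peak at the Cxcr4 start and 2 in the S1pr5 window (16.0%, interval 6.40 to 34.7%), as did 27.3% of all peaks. In widths the peaks were like the whole list, with a median of 823 bp beside 825 bp. Their midpoints lay under 1 kb from a start of any gene in 24.0%, at 1 to 5 kb in 24.0% and over 5 kb in 52.0%, beside 39.1, 15.8 and 45.1% of all peaks, and the intervals of these 3 shares (11.5 to 43.4%, 11.5 to 43.4% and 33.5 to 70.0%) held the shares of all peaks. In the reverse direction 20 of the 51 H3K4me1 regions held a Runx3 peak (39.2%), beside 28.6% of all regions. The median width of the 51 was 2786 bp and that of all regions 1801 bp. These intervals cover counting error only, and the peaks of a window are not replicates.

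**Figure D3:**
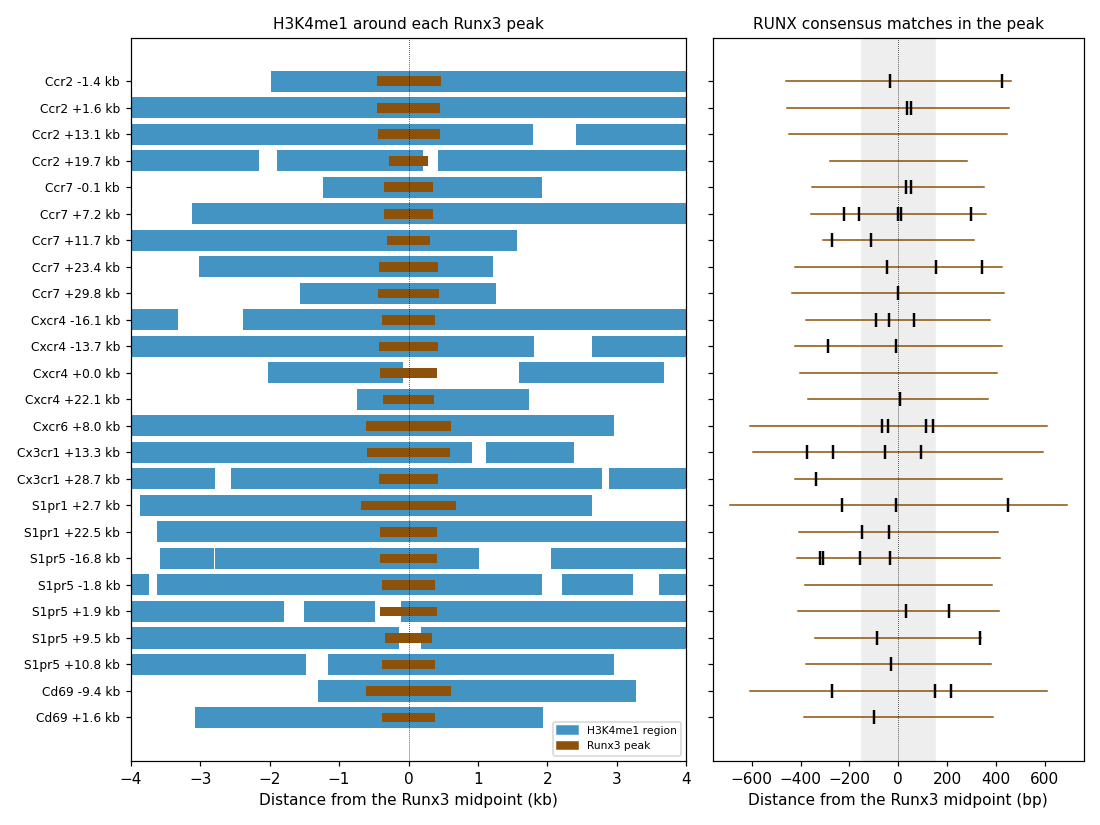
Each of the 25 Runx3 peaks in the receptor windows, named by gene and by the distance of its midpoint from the most upstream start (kb) and drawn in the direction of transcription. Left, H3K4me1 regions (blue) within 4 kb of the midpoint of the peak (brown), where gaps open under the peak at the Cxcr4 start, under 2 peaks in the S1pr5 window and under the edge of the last peak in the Ccr2 window. Right, matches to the RUNX consensus (ticks) along the peak (line, bp), with the central 300 bp in grey, which hold a match in 19 peaks.

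The sequences bound by RUNX, ETS and AP-1 proteins and by T-box proteins, the family of T-bet and Eomes, were searched on both strands of the central 300 bp of each peak. The RUNX consensus was searched as TGTGGT, its variant ending in C (TGTGGC), and both of these with C as the third base (TGCGGT and, ending in C, TGCGGC). It was found in 19 of 25 peaks (76.0%, interval 56.6 to 88.5%), beside 79.4% of all Runx3 peaks and 45.3% of 300-bp windows at the starts of all protein-coding genes (250 bp before to 50 bp after). Sequence at starts is not a matched background for this or the other motifs, since 52.0% of the 25 peaks lay over 5 kb from any start. TGTGGT was in 14 peaks (56.0%, all peaks 48.7%), TGTGGC in 6 (24.0%, all peaks 31.3%), TGCGGT in 4 (16.0%, all peaks 16.0%) and TGCGGC in 1 (4.0%, all peaks 14.7%). At least 2 matches were present in 6 of 25 (24.0%, interval 11.5 to 43.4%), beside 41.4% of all peaks. Over the whole peak 21 of 25 held a match (84.0%, interval 65.3 to 93.6%), beside 93.3%. Each of these intervals held the share of all peaks. The ETS sequence AGGAAGT or its variant CGGAAGT was in 6 of 25 (24.0%, all peaks 25.8%, starts 16.1%), and the AP-1 sequence TGAGTCA was in 0 of 25, which allows a share of up to 12.0% when 3 counts are taken as the limit of a count of 0 (the upper Wilson limit was 13.3%), where all peaks had 7.62% and starts 4.42%.

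The T-box sequence AGGTGTGA was in 4 of 25 peaks (16.0%, interval 6.40 to 34.7%), beside 2.96% of all Runx3 peaks and 1.11% of starts. The interval lay above the share of all peaks, but it rests on 4 peaks, covers counting error only, and belongs to 1 of 4 motifs searched. The motifs were chosen with earlier results of these data known, so the interval is no test. These 4 peaks lay in the windows of Ccr2, Ccr7, Cxcr4 and S1pr5. Of the 4 peaks without a RUNX match over their whole length, 2 held it: the peak 1841 bp upstream of the S1pr5 start, where it lay 11 bp from the midpoint, and the peak past the end of Ccr2, which had it in 2 copies 16 and 1 bp from the midpoint. No match overlapped one of another motif. The median GC content of the 25 centres was 51.3% and that of all peaks 52.3%. The 5 matches are shown in capitals with 20 bp on either side, on the strand that reads AGGTGTGA.
Ccr2 chr9:124029775-124029822, plus strand: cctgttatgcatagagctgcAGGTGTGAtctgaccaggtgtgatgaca
Ccr2 chr9:124029790-124029837, plus strand: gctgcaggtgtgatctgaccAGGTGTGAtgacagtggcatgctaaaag
Ccr7 chr11:98986570-98986617, plus strand: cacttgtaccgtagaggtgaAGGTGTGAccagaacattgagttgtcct
Cxcr4 chr1:130504779-130504826, minus strand: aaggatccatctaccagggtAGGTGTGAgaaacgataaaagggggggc
S1pr5 chr9:21054715-21054762, minus strand: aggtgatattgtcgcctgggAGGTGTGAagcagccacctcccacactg

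Other genes of the trafficking system were counted in the same windows to give the 8 receptors a setting. Of 24 other chemoattractant and S1P receptors, 14 had a Runx3 peak and 10 had none, near the 51.0% of all genes with a peak. A Runx3 midpoint lay under 1 kb from a start at 4 of the 24, a lower share than the 27.2% of all genes, and 23 had an H3K4me1 region (74.0% of all genes). Their median H3K4me1 coverage was 20.7% (range 0 to 64.8%), and the median of the 8 receptors was 46.9% (range 23.1 to 67.5%), so the ranges overlapped. The most Runx3 peaks were found at Cmklr1 (8), the chemerin receptor gene, S1pr4 (6), another S1P receptor of lymphocytes, and Ccr3 (5). Ccr6 and Ccr8, receptors of T cell subsets, and Cxcr2, the neutrophil receptor, had 0, and Cxcr2 had no H3K4me1 region either. Some windows of neighbouring receptors share peaks.

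The counts of the further lists are to be read against the same shares of all genes, 51.0% with a Runx3 peak and 27.2% with a midpoint under 1 kb from a start, and the lists are short. The ligand genes of the chemokine receptors among the 8 stood at the other end. Of 8 ligand genes, 7 had no Runx3 peak, 4 had no H3K4me1 region, and the median coverage was 1.45%. Some of these ligand windows overlap each other, so the empty windows are not all separate observations. The single exception was Cxcl16, the ligand of CXCR6, with 2 Runx3 peaks and 34.2% coverage, whose window overlaps that of Arrb2. Among 6 genes of sphingolipid metabolism and S1P transport 4 had a Runx3 peak (median coverage 13.3%), 1 of them with a single peak in a window of 307 kb. The most were at Sphk2, an S1P-producing kinase, and Spns2, an S1P exporter, with 3 each. Downstream of the receptors, 11 of 12 genes of signalling and desensitization had a Runx3 peak, and 10 had at least 1 under 1 kb from a start (median coverage 26.4%). Rgs3, which speeds the shut-off of G proteins, held 8 peaks in a window of 183 kb, Rac2, a GTPase of leukocyte movement, held 7 in 53.6 kb, and Dock2, which activates Rac, held 6 in 511 kb. The exception was Gnai3, with 0. All 5 genes of transcription factors known to act on trafficking receptors had Runx3 peaks (median coverage 46.1%), with 8 at Tbx21, the gene of T-bet, 6 at Foxo1, 3 each at Eomes and Zeb2, and 2 at Klf2, the activator of S1pr1. The windows of Foxo1 (122 kb) and Zeb2 (174 kb) were wider than the median of 55.4 kb over all genes. Tbx21 and Eomes also stand among the NKC markers above.

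**Figure D4:**
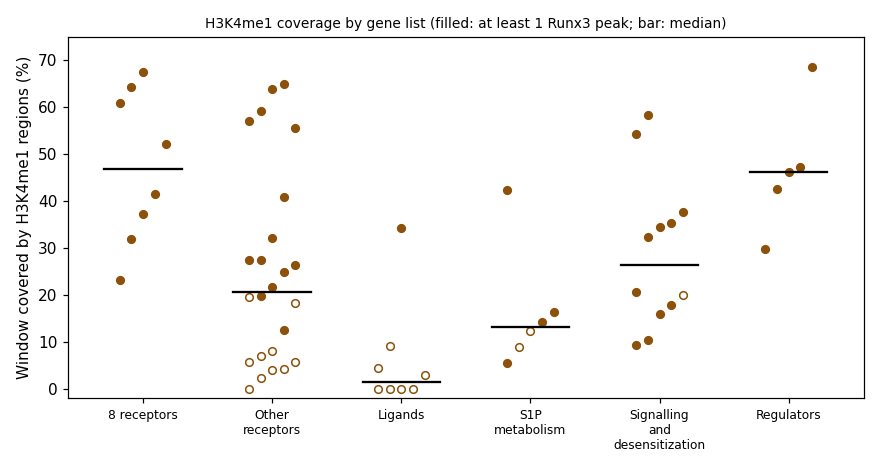
H3K4me1 coverage of the window (%) for each gene of the 8 receptors and of 5 lists of genes of the trafficking system, with filled points for genes with at least 1 Runx3 peak, open points for genes with none, and a bar at the median. The 8 receptors have a median of 46.9% and the ligands 1.45%, with Cxcl16 as the single filled ligand point.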

How the data were processed

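ChIP-seq reads of 40 bp from resting splenic NKC were, per the labels and the methods of the study, aligned to mm9 with ELAND (CASAVA version 1.7 in the processing notes), and uniquely aligned reads of joined biological repeats were passed to MACS with NIS as control and the larger data set scaled to the smaller. The authors deposited 2 lists of region positions, Runx3 and H3K4me1, with no score, height or read count, so the depth behind a region is unknown. The labels call every sample a first immunoprecipitation. However, the Runx3 list holds 15524 regions, the number that the study reports for its calls on joined repeats. For H3K4me1 the text of the study gives no number of regions, so the same comparison could not be made. Reads that aligned to several places were thus not used, which can leave near-identical sequence without a region.

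Gene models were GENCODE M1 on NCBIM37, the same build. Gene starts are the starts of all annotated transcripts. A region belonged to a window when it shared at least 1 bp with it. A peak's midpoint gave its distance to a start. Windows at all 22367 protein-coding genes gave the background. Shares carry 95% Wilson intervals (scipy 1.17.1, Python 3.11.15). The interval and motif functions were checked on simulated regions. No test between groups was made, since each antibody had 1 list.

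The members, lists and motifs were chosen with earlier results of these data known. Every member is named, with the positions of its Runx3 peaks except 1 in the Ccr2 window. From each other list the genes with the most peaks and up to 3 with none are named, with Klf2 to complete its list and the genes of the chromosome 9 cluster and Arrb2 chosen after their values were seen. One listed receptor, Ccrl1, could not be matched to a single protein-coding gene. The rule for sequences gave the central 200 bp of the peak nearest a start. This was widened to 300 bp, the upstream Ccr2 peak was taken, and the start-proximal centres of Cxcr4 and S1pr5 were left out for lack of a RUNX match, all after the values were seen. Values tied to 1 further gene are not reported here. At most 30 bases of a UTR are printed in a sequence.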

Additional observations from a re-analysis of the deposited data

How the results depend on the processing

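Recomputing 8 results under other settings gave 43 values (4 under a setting added once the data had been seen), of which 37 stayed within 1.5 times the value or within its interval. With 5 kb on either side the windows held 15 Runx3 peaks and 26 H3K4me1 regions, and with 50 kb 46 and 95, as fewer or more bases were searched. With only Runx3 peaks at least as wide as the median of the list, 12 remained in the windows and 1 gene (S1pr1) had a midpoint under 1 kb from a start. Wherever it was recounted, 8 of 8 genes had a Runx3 peak and an H3K4me1 region, also without the 6 peaks nearest to another gene's start, which left 19. The share of peaks in H3K4me1 ranged from 92.0% (midpoint rule) to 100%. No paired analysis was possible because each antibody had 1 sample and 1 list. Without read counts, depth at a missing region cannot be judged, and regions absent from a list may have been below the caller's threshold.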
